A study of Mus musculus with 30 samples.

Results

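The 6 genes described here, Alas2, Car1, Car2, Ctse, Epb42 and Rhag, are genes of red cell precursors, and each was found in the value table by its mouse Entrez gene number (11656, 12346, 12349, 13034, 13828 and 19743). They are 6 of 16475 entries measured on 30 arrays of quadriceps muscle from male mice, 1 mouse per array and 10 arrays in each of 3 groups. HF d56 mice were 20 weeks old and had eaten a high fat diet for 56 days. LF d56 mice were also 20 weeks old and had eaten a low fat diet for the same time. LF d0 mice were killed at 12 weeks of age, on day 0. Mice of all groups ate a standard growth diet first and were moved to the low fat diet at 9 weeks of age for a run-in of 3 weeks, and those that went on were assigned to either diet at random. The labels give the strain as C56BL/6J, the series text writes C57BL/6J, and no genetic change is named. The 6 genes were picked for their levels on these same arrays, so how they vary together is a description with no test.

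Red cells are made in the bone marrow, where a precursor fills with haemoglobin, builds a membrane skeleton and loses its nucleus before it enters the blood. Haem synthesis in these cells starts with a synthase of their own, and the membrane carries complexes built round the anion exchanger band 3, which move bicarbonate and gases. The transcription factors GATA1 and KLF1 drive many of these genes. Adult skeletal muscle makes no red cells, but blood runs through it and it lies on bone.

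The regulatory sequences bear on whether genes that rise on the same arrays carry the same letters near their starts. RefSeq's promoter table (GRCm38.p6) matched 3 of the 6 genes, Alas2 (chrX:150547167-150547416, plus strand), Epb42 (chr2:121036878-121037127, minus strand) and Rhag (chr17:40810899-40811148, plus strand). The 250 bases before each start are printed in the gene's direction. Capitals mark a GATA motif, searched on both strands as AGATAA or as AGATAG, or with another first base as TGATAA or as TGATAG.
Alas2: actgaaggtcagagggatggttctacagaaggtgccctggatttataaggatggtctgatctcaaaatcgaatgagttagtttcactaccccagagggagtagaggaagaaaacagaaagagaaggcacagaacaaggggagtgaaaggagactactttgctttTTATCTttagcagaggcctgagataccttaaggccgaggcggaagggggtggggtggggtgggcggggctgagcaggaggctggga
Rhag: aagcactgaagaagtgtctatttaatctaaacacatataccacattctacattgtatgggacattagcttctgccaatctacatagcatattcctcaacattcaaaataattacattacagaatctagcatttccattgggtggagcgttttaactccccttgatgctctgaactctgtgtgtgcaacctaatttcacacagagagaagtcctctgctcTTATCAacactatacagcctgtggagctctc
Epb42: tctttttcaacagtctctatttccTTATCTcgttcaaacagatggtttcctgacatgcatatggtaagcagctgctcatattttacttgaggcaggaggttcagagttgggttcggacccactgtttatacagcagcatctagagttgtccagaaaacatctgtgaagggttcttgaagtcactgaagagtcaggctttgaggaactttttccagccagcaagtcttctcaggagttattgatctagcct

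Each of the 3 windows held 1 GATA motif, which lay 86 to 81 bases before the start in Alas2, 31 to 26 before it in Rhag and 226 to 221 before it in Epb42. The same motifs were present in 26.5% of all 32851 promoter windows of this length. CCNCNCCC, a motif of KLF factors, was searched on both strands and found 4 times in the Alas2 window, each time as its reverse complement and with overlaps between matches, and 0 times in the Rhag and Epb42 windows. It occurred in 45.9% of all windows. A match is a run of letters and not a site shown to be bound.

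Values are linear array intensities made by the authors with GCRMA, and an intensity of 20 is used here as the mark below which signal lies near background. Every array had between 6334 and 6563 entries above 20. Spike-in control RNAs, compared between their 5' and 3' probe sets, parted the arrays into a set of 21 and a set of 9, and the set of 9 held 3 arrays of each group. All 10 fast muscle fibre genes listed were above 20 on every array. In whole muscle, fewer cells of a type and less RNA per cell cannot be told apart.

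Alas2 encodes the red cell form of 5-aminolevulinate synthase, the enzyme that starts haem synthesis. Its intensity had a lowest, median and highest value of 10, 35.45 and 73.4 in HF d56, of 9.5, 15.45 and 68.4 in LF d56, and of 10.4, 33.0 and 84.8 in LF d0. On HF d56 arrays 1 to 10 it read 59.4, 73.4, 12.4, 22.1, 10, 61.4, 48.8, 57.9, 10.4 and 10.7. Each group thus held arrays near background and arrays several times brighter, and the ranges of the groups overlapped almost completely. Alas2 exceeded 20 on 6 HF d56, 4 LF d56 and 7 LF d0 arrays. Alas1, the form of the enzyme used by other tissues, stayed between 930.8 and 1299.2 on all 30 arrays.

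The 2 genes of the membrane differed in how far they could be seen. Rhag, the Rh-associated glycoprotein that anchors the Rh complex and passes ammonium or gases, read 3.0, 8.95 and 32.3 (lowest, median, highest) in HF d56, 2.4, 3.45 and 20.9 in LF d56, and 3.0, 7.2 and 16.2 in LF d0. It was dim on most arrays, with 2 above 20. Epb42, protein 4.2, which ties band 3 to the skeleton below the membrane, read 3.7, 4.4 and 5.7 in HF d56, 3.3, 4.05 and 5.1 in LF d56, and 3.7, 4.45 and 5.2 in LF d0. Epb42 was above 20 on 0 arrays, so all of its values lie near background.

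Car1 and Car2 encode cytosolic carbonic anhydrases, which turn carbon dioxide into bicarbonate, and Car2 is also known from osteoclasts and kidney. Car1 was dim, at 4.3, 8.7 and 22.1 in HF d56, 3.6, 4.65 and 10.8 in LF d56, and 4.4, 6.95 and 17.6 in LF d0. Car2 read 23.9, 106.35 and 197.6 in HF d56, 26.5, 34.5 and 184.3 in LF d56, and 23.0, 77.1 and 335.4 in LF d0. Of the 6 genes, Car2 was the only gene above 20 on all 30 arrays. Car3, the muscle carbonic anhydrase whose gene lies between Car1 and Car2 on chromosome 3, read from 2304.6 to 8682.6.

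Ctse encodes cathepsin E, an aspartic protease known from red cell precursors, stomach and immune cells. It read 6.0, 68.5 and 227.6 in HF d56, 6.9, 9.9 and 156.4 in LF d56, and 7.9, 63.0 and 242.7 in LF d0. On LF d56 arrays 1 to 10 it read 7.2, 6.9, 115.7, 34.6, 10.3, 8.5, 9.2, 156.4, 143.1 and 9.5. Arrays 3, 4, 8 and 9 stood far above the other 6 of that group. Of the genes listed for stomach and other epithelium, 7 of 8 were measured and 7 stayed at or under 20 on every array.

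**Figure D1:**
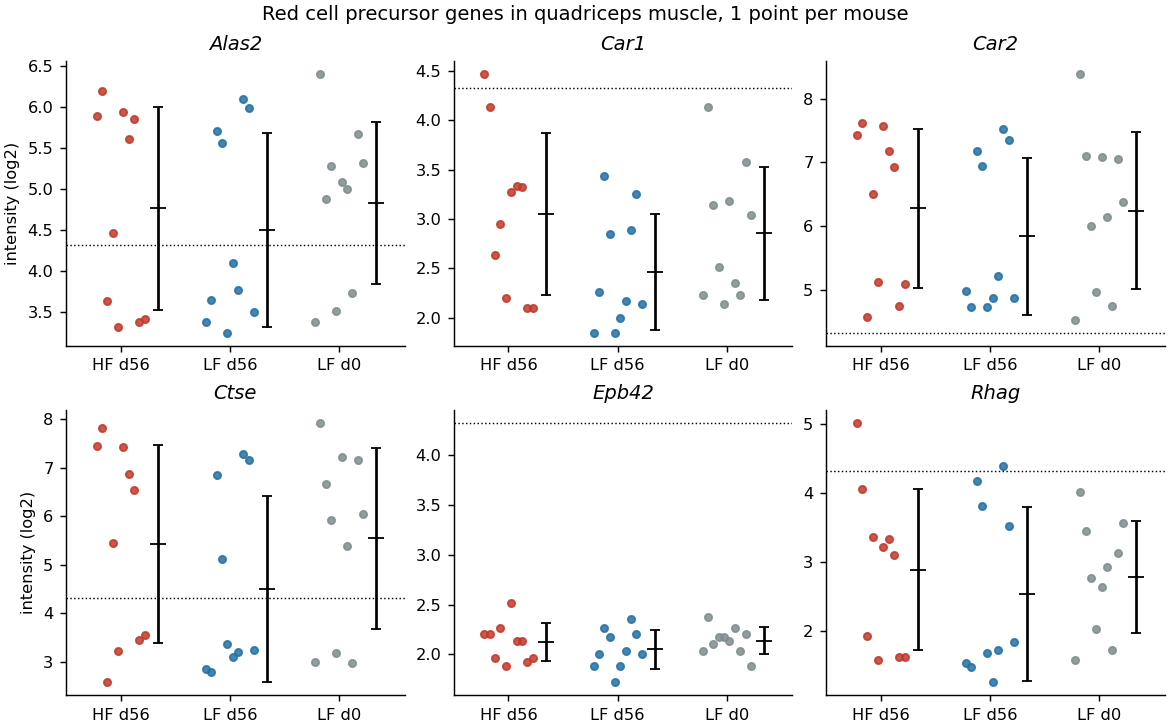
Intensity (log2) of the 6 genes on each array, with HF d56, LF d56 and LF d0 from left to right, 10 mice per group. Points are arrays in the order of their replicate number, the black mark and bar are the mean and SD, and the dotted line is an intensity of 20. Each group holds dim and bright arrays of Alas2, Car2 and Ctse, while Epb42 stays far under the line.

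The arrays parted into 2 sets that were the same for several genes. Each gene's log2 intensity was standardised over the 30 arrays and the 6 values of an array were averaged. Ordered by this mean, the arrays had a gap of 0.845 between neighbours, against 0.189 for the next widest. It left 17 arrays above it and 13 below. Above it lay 6 HF d56, 4 LF d56 and 7 LF d0 arrays.

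Alas2, Car2, Ctse and Rhag each divided the arrays at this gap with no overlap. The gap was placed with these same genes, so their split at it is partly built in and is only a description. Ctse ran from 34.6 to 242.7 on the 17 arrays and from 6.0 to 11.7 on the 13, and Alas2 from 22.1 to 84.8 and from 9.5 to 17.2. Car2 ran from 64.4 to 335.4 above the gap and from 23.0 to 37.3 below it, and Rhag from 6.2 to 32.3 and from 2.4 to 4.1. Car1 and Epb42 overlapped across it, with 15 and 10 of the 17 arrays above the highest of the 13. Above the gap the arrays still differed, by 7.01-fold for Ctse, 5.21-fold for Car2 and 3.84-fold for Alas2, the genes above 20 on all 17.

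The order within the 17 arrays was not the same for every gene. LF d0 replicate 2 was the brightest array for Alas2, Car2 and Ctse and ranked 2 for Car1 and Epb42, but ranked 5 for Rhag. HF d56 replicate 1 was the brightest for Rhag and Car1, and HF d56 replicate 6 for Epb42. These 17 arrays were also the 17 on which S100a8, a calcium-binding protein of neutrophils, exceeded an intensity of 100.

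**Figure D2:**
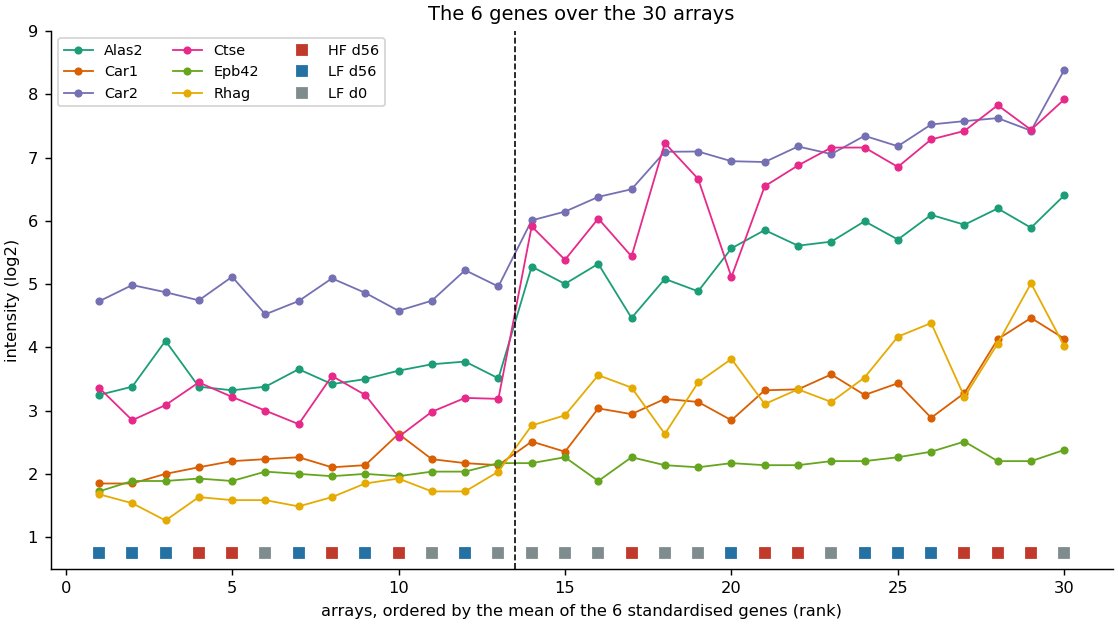
Intensity (log2, vertical axis) of the 6 genes on the 30 arrays, ordered along the horizontal axis by the mean of the standardised genes; squares give each array's group and the dashed line the widest gap. The 13 arrays to its left vary little, and the 17 to its right climb for Car2, Ctse, Alas2, Rhag and Car1. The order is made from the plotted genes, so a climb is partly built in.

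Because the arrays fall apart in this way, a correlation over all 30 mostly states the gap. With group means subtracted, the 15 pairs of genes had a median Pearson r of 0.890 and a median Spearman rho of 0.882 (n = 30). Within the groups the median r was 0.882 in HF d56, 0.926 in LF d56 and 0.876 in LF d0 (n = 10 each). Within the 17 arrays above the gap it was 0.544, and within the 13 below it 0.055, both with group means left in. Group means were likewise left in for every other r on the 17 or the 13 arrays. Such values and those over the 30 arrays are thus unlike measures. Each array was made from a single RNA sample, so all genes of an array share its dissection, RNA and labelling.

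On the 17 arrays all 15 pairs had an r above 0, and 9 had an r above 0.5. The closest pair was Car2 and Ctse (r = 0.831, rho = 0.895, and r = 0.840 without the 2 arrays farthest from the median of Car2). Car1 and Ctse had an r of 0.762, Alas2 and Car2 of 0.756, and Car1 and Car2 of 0.748. The other pairs among Alas2, Car1, Car2 and Ctse were Alas2 with Ctse (0.711) and Alas2 with Car1 (0.606). Rhag had an r of 0.615 with Car1 (0.349 without the 2 arrays farthest from the median of Car1), 0.544 with Car2, 0.523 with Alas2 and 0.369 with Ctse. The highest r of Rhag (0.615) thus lay just above the lowest among Alas2, Car1, Car2 and Ctse (0.606). By rho its highest was 0.605 (with Car2), below their lowest of 0.610 (Alas2 with Car1). Without the 2 arrays farthest from the median of Alas2, Rhag reached 0.626 with Alas2, and Alas2 with Car1 had 0.675. That was the highest of Rhag and the lowest among the others on this measure. These differences were not tested. Epb42 had its highest r with Car2 (0.499) and its lowest with Car1 (0.129).

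On the 13 arrays below the gap 0 pairs had an r above 0.5, and 8 of 15 were above 0. Car2 and Ctse had an r of 0.444 there, and Car1 and Ctse of -0.515. Alas2, Ctse, Car1, Rhag and Epb42 were all under 20 on these arrays, so their differences there lie near background.

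**Figure D3:**
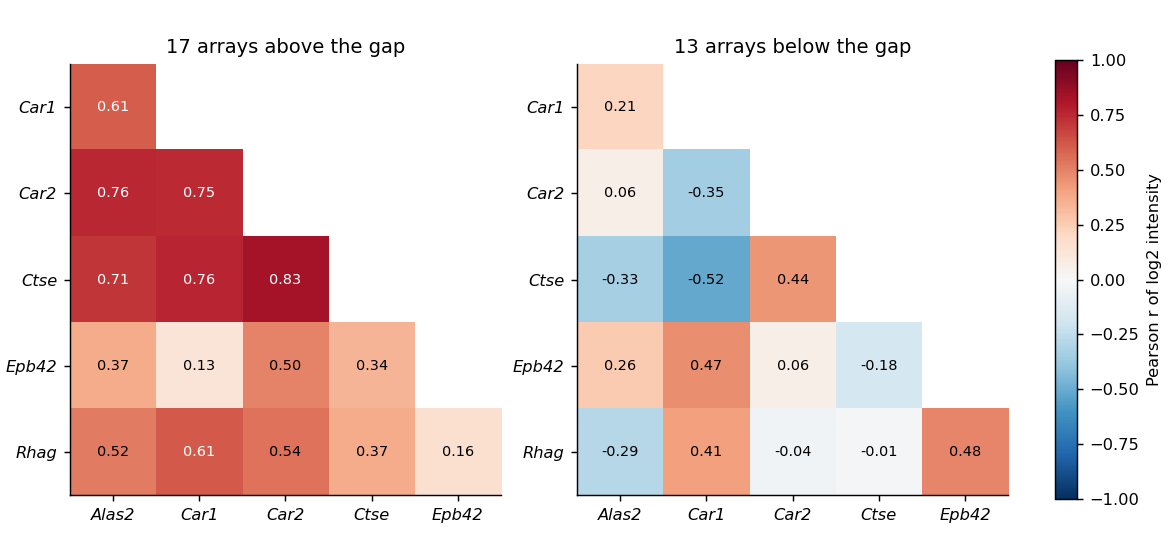
Pearson r of log2 intensity for each pair of the 6 genes, group means left in, coloured from -1 to 1. The 17 arrays above the gap are on the left and the 13 below it on the right. On the left all 15 values are above 0 with Car2 and Ctse highest at 0.83; on the right 7 are below 0.

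The entry most like the 6 genes was Slc4a1, the anion exchanger band 3 itself. Its r with the mean of the standardised genes was 0.986 over the 30 arrays and 0.916 over the 17. Of 6841 entries above 20 on at least 5 arrays it ranked first over the 17, and first of those with a symbol over the 30. Dimmer entries were not ranked. Slc4a1 read 5.0, 36.4 and 134.9 (lowest, median, highest) in HF d56, 5.0, 5.4 and 130.7 in LF d56, and 5.1, 26.6 and 113.7 in LF d0. On the 17 arrays its r was 0.842 with Car2, 0.820 with Rhag, 0.730 with Alas2, 0.720 with Ctse, 0.718 with Car1 and 0.47 with Epb42. Slc4a1 was among the 3 nearest entries of each of the 6 genes.

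After Slc4a1 came, in order over the 30 arrays, Rrm2, the ribonucleotide reductase subunit of dividing cells (r = 0.969), Ppbp, a chemokine precursor of platelets (0.946), Cytl1, a secreted protein found in marrow and cartilage cells (0.943), and the neutrophil genes S100a9 and S100a8 (0.941 and 0.937). Hemgn, a nuclear protein of blood-forming cells, followed at 0.931, then Ecrg4 (0.915), the neutrophil granule gene Ngp (0.904), Slc25a37, the mitochondrial iron importer mitoferrin (0.904), and Gpx1, a peroxidase (0.889). The last of the first 15 were Mcm7 of the replication helicase (0.879), Blvrb, a biliverdin reductase rich in red cells (0.873), Mki67 of dividing cells (0.867) and Fam117a (0.866). Of the 6841 entries, 30 (0.439%) had an r above 0.8, and the median was -0.049. The measure chooses these genes, so their values are a description.

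On the 17 arrays, where group means were left in, the values of these genes spread out. The r with the mean of the 6 genes was 0.791 for Fam117a, 0.776 for Rrm2 and for Ppbp, 0.732 for Cytl1, 0.655 for Mcm7, 0.627 for Mki67, 0.626 for Slc25a37 and 0.614 for Hemgn. It was 0.588 for Blvrb, 0.486 for Gpx1 and 0.428 for Ecrg4. It was 0.353 for S100a8, 0.351 for S100a9 and 0.356 for Ngp, which ranked 531, 544 and 521 of the 6841. Over all ranked entries the median there was 0.000, and 1.68% had an r above 0.5. The values thus form a graded order, and differences between them were not tested.

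The r with neutrophil genes also differed in size among the 6 genes, and these differences were not tested. On the 17 arrays Rhag had an r of 0.037 with S100a8 and 0.006 with Ngp, and Epb42 of -0.045 and 0.003. Alas2 had 0.237 with S100a8, Car2 0.362, Ctse 0.474 and Car1 0.598. Car1 also had an r of 0.737 with Mpo, the myeloperoxidase of granulocyte precursors, and of 0.741 with Elane, their elastase, against 0.291 and 0.218 for Rhag. With Rrm2 the r was 0.809 for Rhag, 0.768 for Car1, 0.726 for Car2, 0.643 for Ctse, 0.615 for Alas2 and 0.120 for Epb42. Without the 2 arrays farthest from each gene's median these were 0.742, 0.713, 0.507, 0.660, 0.652 and 0.531, so Epb42 then lay above Car2. Of the 15 other genes set against Ctse, Ppbp had the highest r (0.836). Car2 had an r of 0.573 with Acp5, the acid phosphatase of osteoclasts, which was 0.294 without the 2 arrays farthest from the median of Car2. Epb42 had a higher r with Acp5, 0.601 (0.401 without the 2 arrays farthest from the median of Epb42). The remaining genes had an r with Acp5 from -0.027 (Rhag) to 0.401 (Ctse). Without each gene's 2 farthest arrays, the r with S100a8 was 0.307 for Rhag, 0.112 for Epb42, 0.236 for Alas2, 0.156 for Car2, 0.372 for Ctse and 0.689 for Car1. Rhag then lay above Alas2 and Car2, while Car1 was again the highest.

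Ibsp, the bone sialoprotein, had an r from -0.291 (Rhag) to 0.219 (Ctse) on the 17 arrays, with group means left in. Over the 30 arrays, with group means subtracted, its r was from 0.556 (Epb42) to 0.854 (Car2). The ranges are unlike measures, since Ibsp was brightest in LF d0, and r within single groups above the gap was not computed. Ibsp read 3.4, 7.1 and 16.7 in HF d56, 3.3, 4.4 and 11.1 in LF d56, and 4.2, 34.9 and 123.6 in LF d0. It exceeded 20 on 6 LF d0 arrays and on 0 arrays of the other groups, whereas Ctse did so in all groups. Car3 had an r of 0.387 or less with each of the 6 genes on the 17 arrays.

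**Figure D4:**
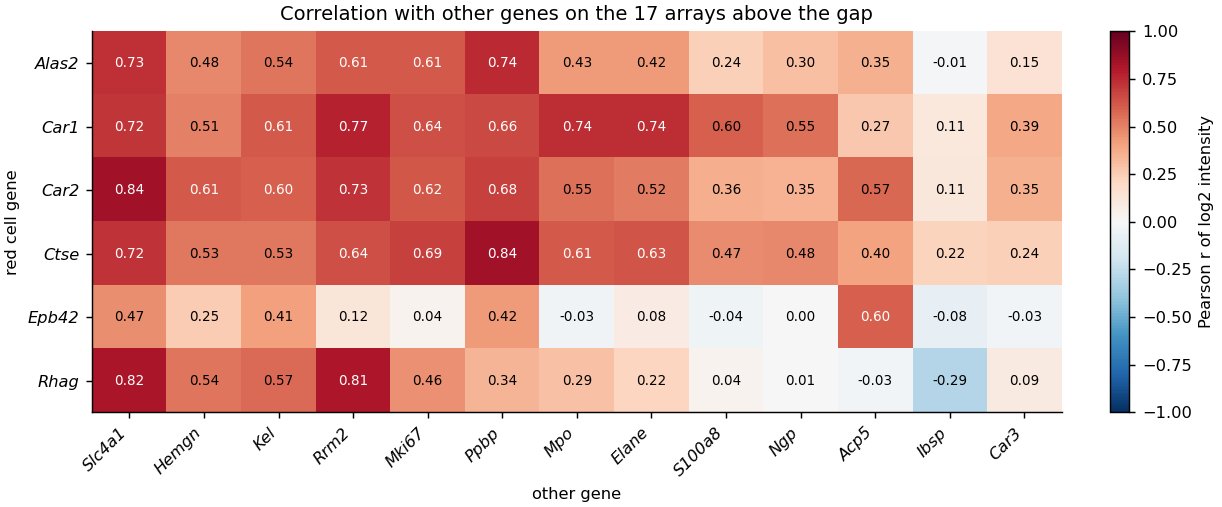
Pearson r of log2 intensity between the 6 genes (down) and 13 other genes (across) on the 17 arrays above the gap, coloured from -1 to 1. Group means are left in, so differences between the groups enter each r. On this measure Slc4a1 is high with all but Epb42, S100a8 and Ngp are near 0 with Rhag and Epb42, and Ibsp is low with all 6.

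Brighter genes in the marker lists of several other blood and bone cells moved with the 6 genes over the 30 arrays. Their part in the results was not tested. Of 12 measured genes of mature neutrophils 7 exceeded 20 on at least 5 arrays, with a median r of 0.836 with the mean of the 6 genes. Their summed intensity ran from 202.9 to 13541.3 in HF d56, from 201.1 to 2796.0 in LF d56 and from 214.5 to 10493.3 in LF d0. For granulocyte precursors (3 of 8 above 20 on at least 5 arrays, median r 0.845) the sum ran from 29.1 to 893.3, from 30.9 to 269.0 and from 30.4 to 506.0 in the same groups. For bone and cartilage (3 of 9, median r 0.758) it ran from 46.4 to 91.6, from 46.5 to 72.9 and from 52.3 to 319.7. These medians, like those of the lists below, cover only genes above 20 on at least 5 arrays. A gene can pass that mark through the arrays above the gap alone, which favours a high r. The genes left out had an r from 0.028 (Cxcr2) to 0.761 (Pglyrp1) in mature neutrophils. It was from 0.34 (Fcnb) to 0.818 (Ctsg) in granulocyte precursors and from -0.256 (Matn3) to 0.787 (Dmp1) in bone and cartilage.

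Dividing cell genes (2 of 11, median r 0.918) had sums of 47.5 to 203.6 in HF d56, 46.3 to 207.0 in LF d56 and 50.8 to 356.2 in LF d0. Megakaryocyte and platelet genes (2 of 8, median r 0.833) had sums of 192.6 to 610.9, 237.4 to 521.4 and 234.4 to 603.5. Slow muscle fibre genes (7 of 7, median r 0.585) had sums of 268.1 to 5632.5, 362.6 to 7977.1 and 383.4 to 5860.7. For B cell precursors 1 of 8 measured genes was above 20 on at least 5 arrays, Ebf1, with an r of -0.189. The other 7 never exceeded 20. Their r was 0.549 for Cd79b, 0.507 for Vpreb1, 0.448 for Rag1, 0.370 for Vpreb3, 0.051 for Dntt, 0.043 for Blnk and -0.017 for Pax5. T cell genes exceeded 20 on 0 arrays. Macrophage genes (7 of 10) had a median r of 0.287, and stem and progenitor cell genes (3 of 6) of 0.121. The stem and progenitor genes left out had an r of 0.860 (Myb), 0.168 (Flt3) and -0.003 (Kit). Those left out of the macrophage list had 0.356 (Itgam) to 0.653 (Vcam1). For dividing cells it was 0.537 (Hmmr) to 0.930 (Ccna2), and for megakaryocytes and platelets 0.245 (Treml1) to 0.756 (Gp1bb).

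The factors that define the red cell lineage were near background. Gata1 read from 5.1 to 10.6 over the 30 arrays, Klf1 from 3.5 to 9.0 and the erythropoietin receptor Epor from 3.9 to 7.3, none of them above 20 (named after their values were seen). Of 16 transcription factor and receptor genes, all measured, 10 never exceeded 20. The 3 of highest median level were Stat5b (670.1), Jak2 (259.55) and Cbfa2t3 (95.2), which many tissues use, and their r with the mean of the 6 genes was -0.284, -0.099 and 0.046. Lmo2, a partner of GATA1 that endothelium also makes, had an r of 0.819. Dim as they were, several lineage factors also had a high r, with 0.902 for Nfe2, 0.899 for Klf1, 0.818 for Tal1, 0.772 for Gfi1b and 0.741 for Gata1. Epor had an r of 0.649, Bcl11a of 0.409 and Foxo3 of -0.244.

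Other membrane genes of red cells varied in how they followed the 6 genes. Of 17 measured of 20 listed, 9 exceeded 20 on at least 5 arrays, with a median r of 0.171. The brightest were the water channel Aqp1 (median 1758.35, r = 0.167), tropomodulin Tmod1 (1558.25, r = -0.165) and ankyrin Ank1 (992.8, r = -0.168), and Cd47, also bright, had an r of 0.645. The other 8 never exceeded 20 and are all named here, after their values were seen. They were Ermap (3.3 to 15.6, r = 0.966), Rhd (3.1 to 8.4, r = 0.871), the Rh protein that RHAG carries, Kel (2.8 to 10.8, r = 0.864), the Kell blood group protease, Dmtn (r = 0.748), Icam4 (0.413), Add2 (0.234), Bcam (-0.132) and Xk (-0.463).

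Of the 13 measured genes of haem synthesis and mitochondrial iron import, Slc25a37 alone had an r above 0.8. The ferrochelatase Fech (median 907.2, r = 0.223), Urod (769.8, r = 0.502) and Alas1 (1130.65, r = 0.307) were bright on all arrays. Iron uptake and storage genes (9 measured of 12) had a median r of 0.003. Blvrb was the only gene of them above 0.8, and the transferrin receptor Tfrc, which takes up iron, had an r of -0.038. Of 14 other late red cell genes, Hemgn and Mkrn1 (0.827) were bright and above 0.8. The 5 that never exceeded 20 had an r of 0.968 (Trim10, 3.6 to 12.3), 0.890 (Cldn13), 0.851 (Isg20), 0.790 (Nxpe2) and 0.255 (Samd14). Of globins, the embryonic Hbb-y, Hbb-bh1 and Hba-x were measured and read 4.9 or less; adult globins were not analysed here.

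Families of the 6 genes were listed as well. Of the 14 other carbonic anhydrase genes 4 exceeded 20 on at least 5 arrays, with a median r of -0.005. They were Car3 (0.021), Car14 (-0.420), Car4 (0.317) and Car11 (-0.030). The bright cathepsins and aspartic proteases (9 of 13) had a median r of 0.036 and reached 0.519 in Ctsk, and the lysosomal aspartic protease Ctsd read from 1692.0 to 2344.6 with an r of 0.036. Transglutaminases, the enzyme family to which protein 4.2 belongs by sequence, had 2 bright genes, Tgm2 (-0.163) and F13a1 (0.494).

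HF d56 against LF d56 sets the diets side by side in mice of the same age. All 6 genes had a higher mean on the high fat diet, and none passed limma's test over all entries. Because the 6 genes vary together, their shared direction is not 6 separate results. Above the gap lay 6 HF d56 and 4 LF d56 arrays. Ctse differed by 0.94 ± 0.81 (log2, SE; adjusted p = 0.998, higher than the LF d56 mean on 6 of 10 HF d56 arrays), with means of 5.44 ± 2.04 in HF d56 and 4.5 ± 1.91 in LF d56 (SD, n = 10 each, limma). Car1 had the smallest p, with a difference of 0.58 ± 0.29 (limma adjusted p = 0.982, 7 of 10 arrays). The 95% intervals of the difference reached from -0.72 to 2.6 for Ctse, from -0.01 to 1.18 for Car1, from -0.62 to 1.49 for Car2, from -0.70 to 1.24 for Alas2, from -0.59 to 1.28 for Rhag and from -0.09 to 0.23 for Epb42. All 6 intervals include 0.

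In this comparison limma called 0 of the 6 genes, against 4 of 16475 entries (0.0243%), and 0 of the 6 had an unadjusted p below 0.05, as 841 entries did. The median difference of the 6 genes was 0.39, and that of all entries 0.003. The spread within groups was large. Only 0.085% of all entries had a larger standard error than Ctse. Taken separately, the spike-in sets of 21 and 9 arrays gave 0.16 and 2.76 for Ctse, -0.10 and 1.69 for Car2, -0.18 and 1.31 for Alas2, 0.51 and 0.75 for Car1, and 0.05 and 1.03 for Rhag. In the set of 9, 2 HF d56 and 0 LF d56 arrays of 3 each lay above the gap, and in the set of 21, 4 of 7 in each group.

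**Figure D5:**
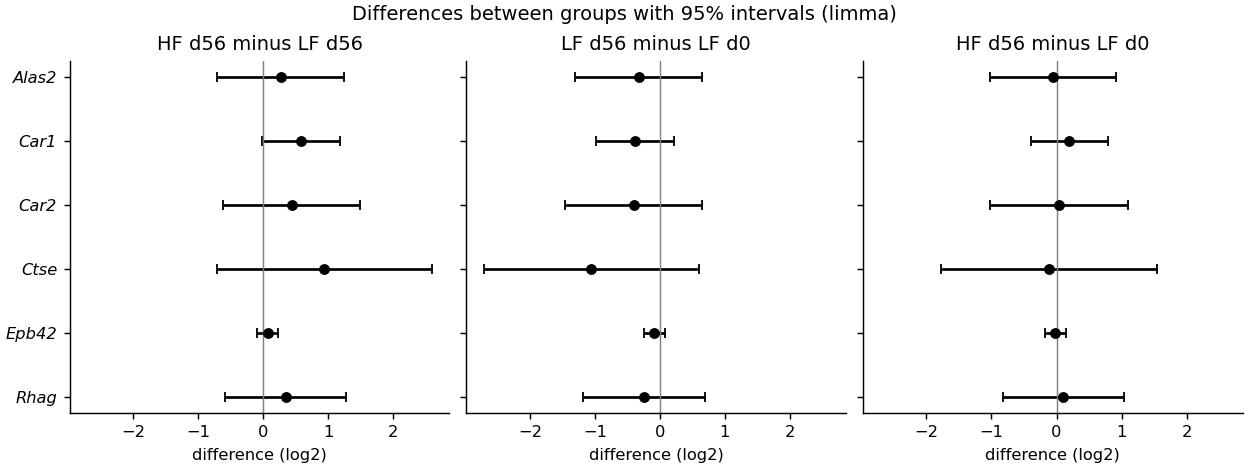
Differences in mean log2 intensity of the 6 genes (limma, points) with 95% intervals (bars) for HF d56 minus LF d56, LF d56 minus LF d0 and HF d56 minus LF d0, 10 arrays per group. All 18 intervals include 0, and that of Ctse is the widest in each panel.

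The comparison of LF d56 with LF d0 covers the time on the low fat diet, in which age, diet time and the day of killing go together. All 6 genes had a lower mean at d56, and limma called 0 of them against 140 of 16475 entries (0.85%), of which 103 were lower (0.625%). None of the 6 genes had an unadjusted p below 0.05. Their shared direction is again not 6 separate results, with 4 LF d56 and 7 LF d0 arrays above the gap. Ctse differed by -1.05 ± 0.81 (log2, SE; limma adjusted p = 0.718, lower on 7 of 10 arrays), with means of 4.5 ± 1.91 in LF d56 and 5.55 ± 1.87 in LF d0. Car2 differed by -0.40 ± 0.52, Car1 by -0.39 ± 0.29, Alas2 by -0.33 ± 0.48, Rhag by -0.24 ± 0.46 and Epb42 by -0.09 ± 0.08, with limma adjusted p-values from 0.714 to 0.918. Within the sets of 21 and 9 arrays Ctse differed by 0.18 and -3.94, Car2 by 0.35 and -2.14, Alas2 by 0.21 and -1.57, Rhag by 0.25 and -1.39, and Car1 by -0.08 and -1.11. The set of 9 held 0 LF d56 and 3 LF d0 arrays above the gap, of 3 each.

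HF d56 against LF d0 joins diet and time and shares its arrays with both other comparisons. Of the 6 genes 3 were higher and 3 lower, limma called 0 against 262 of 16475 entries (1.59%; 0.783% higher and 0.807% lower), and the largest difference was that of Car1, 0.20 ± 0.29 (limma adjusted p = 0.896). Ctse differed by -0.11 ± 0.81, with means of 5.44 ± 2.04 in HF d56 and 5.55 ± 1.87 in LF d0. Its 95% interval ran from -1.77 to 1.54.

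The other genes of the pathway were counted list by list. In HF d56 against LF d56, 0 passed of the 16 transcription factor and receptor, 17 membrane, 13 haem and mitochondrial iron, 9 iron, 3 globin and 14 other late red cell genes. In LF d56 against LF d0 only Slc25a28, a second mitochondrial iron importer found in many tissues, passed, 1 of the 13 haem and mitochondrial iron genes, against 0.85% of all entries. It was higher by 0.39 ± 0.06 (limma adjusted p = 0.000255). In HF d56 against LF d0 Slc25a28 rose by 0.42 ± 0.06 (adjusted p = 2.93e-05), the kinase Jak2 fell by 0.37 (adjusted p = 0.00517) and Abcb6, a porphyrin transporter, fell by 0.35 (adjusted p = 0.00623), all in limma. These are 2 of the 13 haem and mitochondrial iron genes and 1 of the 16 transcription factor and receptor genes, against 1.59% of all entries. The r of these 3 genes with the mean of the 6 genes was -0.098, -0.099 and -0.241.

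Of the 9 measured bone and cartilage genes 2, Ibsp and Col2a1, the cartilage collagen, fell in LF d56 against LF d0, by 2.08 ± 0.49 (limma adjusted p = 0.0312) and 1.95 ± 0.45 (adjusted p = 0.0234), against 0.625% of all entries called lower. In HF d56 against LF d0 they differed by -1.74 ± 0.49 (limma adjusted p = 0.0688) and -1.50 ± 0.45 (adjusted p = 0.094), which did not pass. Of the 8 osteoclast genes 1, the matrix protease Ctsk, fell by 0.67 ± 0.17 (limma adjusted p = 0.0447) in that comparison and by 0.64 ± 0.17 (adjusted p = 0.0407) in HF d56 against LF d0. For the 12 measured genes of mature neutrophils the median difference was 0.85 in HF d56 against LF d56 and -1.37 in LF d56 against LF d0, with 0 called in limma. Whether the 6 red cell genes differed less over time than Ibsp did was not tested.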

How the data were processed

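Quadriceps RNA was labelled with biotin and hybridised to Affymetrix arrays, per the labels. Each value of the deposited table is a linear intensity, which the authors obtained with GCRMA per the submitters' processing notes, with version and settings not given in the sources used here. Intensities ran from 1.2 to 30599. The table has 16539 entries, and without its 64 control probe sets 16475 were tested; 15780 had 1 symbol and 695 none. The log2 of each deposited intensity was taken with a pseudocount of 0. Groups came from the labels. Each array is a separate mouse there, and replicate numbers pair none of them.

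Group means were compared by limma 3.58.1 under R 4.3.3 (all 30 arrays in 1 fit, group as the only factor, 27 residual and 3.97 prior degrees of freedom), two-sided, adjusted by Benjamini-Hochberg over all entries, threshold 0.05. The fit was tested on simulated data. Correlations and figures used Python 3.11.15, numpy 2.4.6, scipy 1.17.1 and matplotlib 3.10.9. Genes most like the 6 were the 15 named entries above 20 on at least 5 arrays with the highest r; of the lists, genes past a test and up to 3 of highest median level were named. For arrays, the number of mice limits precision. The 6 genes, the lists and the alternatives were chosen with earlier results of these data known.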

Additional observations from a re-analysis of the deposited data

How the results depend on the processing

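Of 90 refits, 0 called any of the 6 genes, and the lowest adjusted p was 0.167 (limma, within the set of 9 arrays). Car1, Rhag and Epb42 lie near background and did not pass the filter on dim entries, so 3 of 6 could be fitted under it. Replicate numbers did not pair the arrays: of 30 same-numbered pairs of arrays 8 correlated above 0.1 (median -0.07), and 4 of 30 arrays matched their own number best. With the replicate number as a block 0 of the 6 genes passed in each comparison, and 1, 104 and 209 entries did in HF d56 against LF d56, LF d56 against LF d0 and HF d56 against LF d0, against 4, 140 and 262 without it.

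In HF d56 against LF d56 the entries called were 7 with a pseudocount of 16, 8 among bright entries only, 8 with trend and robust priors, 0 with only the groups compared and 0 within each spike-in set. In LF d56 against LF d0 they were 214 with the spike-in set as a block, and 47 and 11 within the sets of 21 and 9; in HF d56 against LF d0 they were 134 and 0 within these sets. Leaving out 1 array gave 2 to 15, 102 to 155 and 214 to 271 entries, and 0 of the 6 genes each time.

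In HF d56 against LF d0 the difference of Alas2 was 0.00434 with a pseudocount of 16, and with 1 array left out it ran from -0.22 to 0.12. There Car2 ran from -0.15 to 0.28, Ctse from -0.40 to 0.20, Epb42 from -0.0626 to 0.00759 and Rhag from -0.13 to 0.25. Neither of the other comparisons had a difference that changed sign with 1 array left out. The median pairwise r of 0.890 was 0.883 to 0.903 with 1 array left out, 0.851 with a pseudocount of 16 and 0.926 within LF d56. On the 17 and 13 arrays either side of the gap, a split chosen after seeing the data, it was 0.544 and 0.0552 with group means left in. The causes were not tested.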
